A study of Mus musculus with 2 samples.

Results

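The cytosolic RNA sensing genes examined here were Ddx58 (RIG-I), Ifih1 (MDA5), Dhx58 (LGP2), Mavs, Eif2ak2 (PKR), Adar (ADAR1) and Zbp1. These 7 genes were taken by symbol from the 31053 genes in the files, and all 7 were found. Of the members, 6 reached 5 CPM as a mean over both libraries and Zbp1 did not (CPM, the UMIs of a gene in every 1000000 of the library; a UMI, or unique molecular identifier, marks 1 captured molecule). In all, 8879 genes reached that level.

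Cells sense foreign or mislocalised RNA in the cytosol through the RIG-I-like receptors. RIG-I and MDA5 bind different forms of double-stranded RNA and signal through the mitochondrial adaptor MAVS to the kinases and transcription factors that switch on type I interferon genes, while LGP2 lacks the signaling domains of both and modulates them. PKR and ZBP1 answer to double-stranded and Z-form nucleic acid with a block of translation and with cell death, and ADAR1 edits double-stranded RNA so that cellular transcripts are not read as foreign. Several of these genes are themselves induced by interferon. USP18, the protein whose gene was targeted in this study, removes the ubiquitin-like modifier ISG15 from proteins and restrains signaling at the type I interferon receptor.

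The cells were AE9a leukemia cells, fetal liver cells of Usp18+/f mice with an inducible Cre, transduced with a retrovirus carrying the truncated AML1-ETO fusion AE9a and green fluorescent protein (GFP), and passed through secondary transplantation into sub-lethally irradiated recipients. Both groups therefore shared AE9a, 1 floxed Usp18 allele and a Cre that tamoxifen switches on, present in all tissues. Recipients received oil (Usp18+/f) or tamoxifen (Usp18+/Δ), and GFP+ Lin- c-Kit+ splenocytes were sorted 3 days after the first injection. Mice were 8 to 12 weeks of age. Each group was 1 library from pooled cells of 3 mice with 8000 cells targeted, and tamoxifen itself and the deletion cannot be told apart. The comparison asked how RNA sensing genes differed in leukemia cells in which 1 allele of Usp18 was to be removed.

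After filtering, 6546 and 7073 cells remained in the Usp18+/f- and Usp18+/Δ-labelled libraries, with 58068183 and 59503327 UMIs and medians of 8575.5 and 8023 UMIs per cell. Both libraries shared 15 of their cell barcodes, 11 among kept cells. Usp18 had 330 UMIs (5.68 CPM) and 1434 UMIs (24.1 CPM), so that its mRNA was higher in the Usp18+/Δ-labelled library and went against the label. Counts near the 3′ end do not tell the alleles apart and check nothing about the deletion. Kit, the sorted surface marker, was at 96.8 and 102.4 CPM, and 4 plasmacytoid dendritic cell markers summed to 2.72 and 2.52 CPM with Siglech at 0 in both. Summed macrophage markers were at 2.08 and 5.61 CPM. Summed neutrophil markers were at 0.0344 and 22.5 CPM, but 1 cell held 1316 of the 1340 neutrophil UMIs in the Usp18+/Δ-labelled library. The summed markers of T, B and NK cells stayed below 0.5 CPM in both. Mast cell markers summed to 1070 and 1101 CPM, but their members moved apart, with Mcpt1 at 180.5 and 81.9 CPM and Cpa3 at 100.8 and 190.2 CPM. Erythroid markers summed to 4014 and 4185 CPM, with Hba-a1 at 1053 and 919.0 CPM and Hbb-bt at 597.1 and 784.1 CPM. The median log2 ratio of the members, 1.15 over all kept cells, was 1.15 without cells with a C1q UMI and 1.15 without cells with a neutrophil marker UMI. The part of the mast cell and erythroid markers in the results was not tested. There was no replicate library, so that each difference below compares these 2 libraries only, without a p-value, and the 95% intervals cover counting error alone.

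Of the 6 members with at least 5 CPM, 5 were at least 1.5-fold higher in the Usp18+/Δ-labelled library, against 1.17% of all tested genes. None was at least 1.5-fold lower, against 0.18% of all tested genes. Eif2ak2 sat at the 1.5-fold limit and fell below it at no more than 5% mitochondrial UMIs (log2 ratio 0.47), without interferon-high cells (0.57) and with per-cell CPM means (0.584 against 0.585). The median log2 ratio of the 7 members, with Zbp1 at the bound that a limit of 3 UMIs gives, was 1.15. It was that of Ifih1 (95% interval 1.02 to 1.27, for that gene alone). Over the 6 members with at least 5 CPM, without Zbp1, the median was 0.99, and over all tested genes it was 0.0074. All 3 RIG-I-like receptors, PKR and ADAR1 were among the higher genes, and the adaptor Mavs was not.

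Dhx58, the receptor homolog without a signaling domain, had the highest ratio of the 6 members above the level filter. It lies at chr11:100694884-100704271 on the minus strand (mm10) and overlaps the antisense gene Dhx58os. The sources used here do not state whether counting used strand. Dhx58 had 231 UMIs (3.98 CPM, 3.48 to 4.53) in the Usp18+/f-labelled library and 1024 UMIs (17.2 CPM, 16.2 to 18.3) in the Usp18+/Δ-labelled library. It was 4.33-fold higher, a log2 ratio of 2.11 (1.91 to 2.33), and ranked 11 among the 8879 tested genes. Its level was below 5 CPM in the Usp18+/f-labelled library, so that it passed the level filter through the other library.

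Ddx58, the sensor of short double-stranded RNA with a triphosphate end, had 584 UMIs (10.1 CPM, 9.26 to 10.9) and 1550 UMIs (26.0 CPM, 24.8 to 27.4). The log2 ratio was 1.37 (1.23 to 1.51) and the rank 23. Ifih1, the sensor of long double-stranded RNA, had 775 UMIs (13.3 CPM, 12.4 to 14.3) and 1759 UMIs (29.6 CPM, 28.2 to 31.0), a log2 ratio of 1.15 (1.02 to 1.27) and rank 30. Both intervals lay above 2-fold. Ddx58 lies at chr4:40203773-40239828 and Ifih1 at chr2:62595798-62646255, both on the minus strand.

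Mavs, through which RIG-I and MDA5 signal, stood at the same level in both libraries within counting error. It had 4591 UMIs (79.1 CPM, 76.8 to 81.4) and 4596 UMIs (77.2 CPM, 75.0 to 79.5). Its log2 ratio was -0.034 (-0.093 to 0.026), and the gene lies at chr2:131234063-131248025 on the plus strand. Counting error thus allows a difference of at most 0.093 log2 units in either direction.

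Eif2ak2 encodes the kinase PKR, which phosphorylates the initiation factor eIF2α. It had 2984 UMIs (51.4 CPM, 49.6 to 53.3) and 4804 UMIs (80.7 CPM, 78.5 to 83.1), a log2 ratio of 0.65 (0.59 to 0.72), rank 82. Adar had 968 UMIs (16.7 CPM, 15.6 to 17.8) and 1765 UMIs (29.7 CPM, 28.3 to 31.1), a log2 ratio of 0.83 (0.72 to 0.95), rank 59. Their intervals did not overlap those of Ddx58, Ifih1 or Dhx58, so that the ratios of both genes were smaller than those of the 3 receptors by more than counting error. Eif2ak2 lies at chr17:78852564-78882573 on the minus strand and overlaps the noncoding gene Gm26637 on the other strand. Adar lies at chr3:89715022-89753446 on the plus strand and overlaps Chrnb2 on the other strand.

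Zbp1, a sensor of Z-form nucleic acid that engages RIPK3, was nearly absent. The gene lies at chr2:173206612-173218923 on the minus strand. The Usp18+/f-labelled library held 0 Zbp1 UMIs in 6546 cells, for which a limit of 3 UMIs allows up to 0.0517 CPM and a share of up to 0.0458% of cells with a UMI (exact 95% upper bounds 0.0635 CPM and 0.0563%). The other library held 15 UMIs (0.252 CPM, 0.141 to 0.416) in 10 of 7073 cells, at least 4.88-fold higher than that limit of 3 UMIs as a point value. With counting error in both libraries the exact lower bound of its log2 ratio was 1.81. One cell held 4 of the 15 UMIs. Of the 10 cells, 7 had an Isg15 UMI, 6 had a Kit UMI and 2 had a UMI of a C1q gene, the macrophage marker. None had a neutrophil marker UMI. These cells held a median of 32 UMIs of the interferon list described below.

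**Figure D1:**
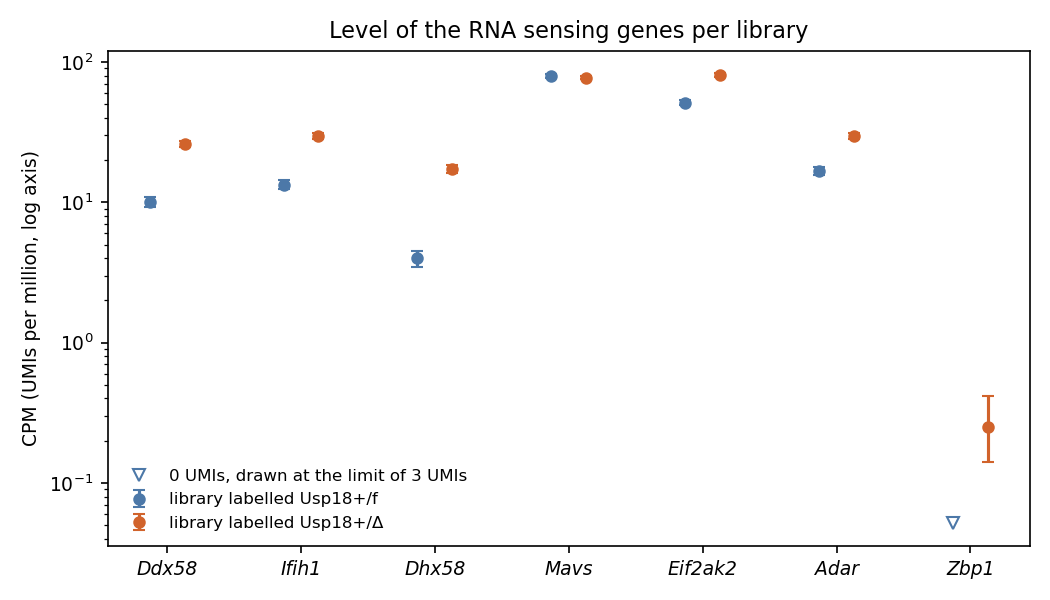
CPM of the 7 genes in the Usp18+/f- (blue) and Usp18+/Δ-labelled (orange) libraries on a log axis. Points are library sums, bars are exact Poisson 95% intervals, and the open triangle marks the limit that 0 UMIs of Zbp1 allow. Ddx58, Ifih1, Dhx58, Eif2ak2 and Adar are higher in orange, from 1.57-fold for Eif2ak2 to 4.33-fold for Dhx58, and the Mavs intervals overlap.

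Because 5 members were higher together, the start regions of the genes were read for letters of the interferon-stimulated response element. RefSeq promoter windows (build GRCm38.p6, 250 bases before to 50 after the annotated start) were at hand for 5 of the 7 members and for Isg15; Dhx58 and Zbp1 had no entry. The motif searched was GAAA, any 2 bases, then GAAA, on both strands, and it occurred in 3.44% of all 32851 windows. The shorter overlapping motif AANNGAAA occurred in 23.9% of them. The longer motif stood once in Ddx58, Ifih1 and Eif2ak2 and at 3 overlapping positions in Isg15. Neither motif was found in the Mavs window or in the first 2 of the 3 Adar windows, and the third Adar window held the shorter one. The stretches of 30 bases around these matches are shown 5′ to 3′ on the strand of the gene, with both motifs in capitals. They are given to show which letters the members share with Isg15 close to their starts. A match is a description of letters and not a binding site.
Ddx58, chr4:40239804-40239833, minus strand: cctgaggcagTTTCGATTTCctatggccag
Ifih1, chr2:62646206-62646235, minus strand: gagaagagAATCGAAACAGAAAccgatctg
Eif2ak2, chr17:78882535-78882564, minus strand: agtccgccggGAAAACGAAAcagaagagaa
Adar, start 3, chr3:89730736-89730765, plus strand: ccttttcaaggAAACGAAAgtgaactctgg
Isg15, chr4:156200871-156200900, minus strand: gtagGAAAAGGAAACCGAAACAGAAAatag

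In Ddx58 the motif reads on the opposite strand of the gene. Counting the annotated start as 0, the longer motif began at 2 in Ddx58, 32 in Ifih1 and 18 in Eif2ak2, all downstream of the start, and at -78 in Isg15. The third motif searched, TTCNNNGAA, which interferon gamma responsive elements hold, was present in 8.30% of all windows, once in Eif2ak2 and once in the third Adar window.

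The share of cells with a UMI of each member was compared after each cell had been thinned at random to 3000 UMIs, which left 6090 and 6723 cells and left out 456 and 350 shallower ones. Ddx58 was detected in 3.07% of cells (2.65 to 3.54) of the Usp18+/f-labelled library and in 7.75% (7.12 to 8.41) of the Usp18+/Δ-labelled library. Ifih1 went from 3.88% to 8.49% and Dhx58 from 1.30% to 5.53%. At this depth most cells with a UMI of a receptor hold a single one, so that these shares follow the CPM and do not tell more cells apart from more UMIs per cell. Eif2ak2 was detected in 14.2% and 20.5%, and Adar in 4.71% and 8.70%. Mavs was detected in 21.1% (20.1 to 22.1) and 20.6% (19.6 to 21.6). Without thinning the shares were higher in both libraries and kept their direction, at 8.0% and 17.5% for Ddx58, 10.5% and 19.4% for Ifih1, 3.41% and 12.6% for Dhx58, 33.7% and 44.2% for Eif2ak2, 13.2% and 21.2% for Adar, and 47.1% and 45.0% for Mavs. No cell type in the sort is known to lack these genes, so that the share that free RNA in the droplets gives was not measured.

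The number of members per cell follows from these shares, with no value for independent genes set beside it. At 3000 UMIs a cell of the Usp18+/f-labelled library had a UMI of 0.482 members on average, and a cell of the Usp18+/Δ-labelled library of 0.716. Exactly 2 members were detected in 6.44% (5.83 to 7.08) and 11.6% (10.9 to 12.4) of cells, and 3 members in 0.772% and 2.72%. A set of 4 members was found in 2 and 28 cells, and 5 members in 0 and 4 cells.

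Most pairs among the receptors, PKR and ADAR1 shared cells more often than the product of their shares gives in the Usp18+/Δ-labelled library. Pairs of other genes were not counted, so that how common such values are over all genes was not tested. Ddx58 and Ifih1 were detected together there in 70 cells, 1.58 times the product of 44.2. Ddx58 and Dhx58 shared 51 cells (1.77 times the product), and Ifih1 and Dhx58 shared 56 cells (1.77 times). With Eif2ak2 the receptors lay at 1.21 times (Ddx58), 1.23 times (Ifih1) and 1.39 times (Dhx58), and with Adar at 1.41, 1.33 and 1.27 times. For Dhx58 with Adar the interval included no difference (ratio of shares 1.29, 0.951 to 1.73). The corresponding counts in the Usp18+/f-labelled library were 16 cells for Ddx58 and Ifih1 (2.21 times), 4 cells for Ddx58 and Dhx58, and 6 cells for Ifih1 and Dhx58, too few for the last 2 pairs to stand apart from the product. There, the receptors with Eif2ak2 lay at 1.02, 1.10 and 0.980 times and with Adar at 1.02, 0.719 and 1.07 times, all within counting error of the product. Pairs with Mavs lay near the product in the Usp18+/Δ-labelled library, at 1.05 times for Ddx58, 0.944 times for Ifih1 and 1.06 times for Dhx58, but Ifih1 with Mavs was at 1.31 times in the Usp18+/f-labelled library. The kinase and the editing enzyme, Eif2ak2 and Adar, shared 118 cells against a product of 119.6.

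Co-detection with Isg15 was then examined within each library. Isg15 encodes the modifier that USP18 removes and is a strongly interferon-induced gene. Its level was 20.9 and 115.6 CPM, and at 3000 UMIs it was detected in 348 of 6090 cells (5.71%) and 1259 of 6723 cells (18.7%). Before thinning the Isg15-positive cells were somewhat shallower than the negative ones, with medians of 8137 against 8934.5 UMIs and of 7588 against 8411 UMIs.

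All 3 receptors were detected more often in Isg15-positive than in Isg15-negative cells of the Usp18+/Δ-labelled library. Dhx58 was detected in 142 of 1259 positive cells (11.3%, 9.58 to 13.2) and 230 of 5464 negative cells (4.21%, 3.69 to 4.78), a ratio of 2.68 (2.19 to 3.27). Ddx58 was found in 15.6% and 5.93%, a ratio of 2.64 (2.23 to 3.11), and Ifih1 in 16.0% and 6.75%, a ratio of 2.38 (2.02 to 2.79). Adar was found in 11.8% and 7.98%, a ratio of 1.48 (1.24 to 1.77), and Eif2ak2 in 26.4% and 19.1%, a ratio of 1.39 (1.24 to 1.54). Mavs was found in 22.3% and 20.2%, and the interval of its ratio of 1.11 (0.984 to 1.24) included 1. Ratios of at least 1.5 were thus seen for 3 of 6 members, against 1.31% of all genes tested, whose median ratio was 0.978. Adar, just under this limit, was above it at 1.61 (1.35 to 1.91) in a second random thinning and at 1.51 (1.38 to 1.65) without thinning, which makes 4 of 6. Of the cells with a Dhx58 UMI, 38.2% were Isg15-positive, and of those with a Mavs UMI, 20.3%. Of the cells with a Zbp1 UMI, 1 of 4 was Isg15-positive in this thinning, 2 of 3 in the second and 7 of 10 without thinning, too few to read a share from.

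The same ratios were less certain in the Usp18+/f-labelled library, which had 348 Isg15-positive cells, 316 of them with a single Isg15 UMI. Ddx58 was detected in 7.18% of positive and 2.82% of negative cells, a ratio of 2.55 (1.69 to 3.80). Ifih1 was at 8.05% and 3.62%, a ratio of 2.22 (1.52 to 3.22). Dhx58 was found in only 7 positive cells, and its ratio of 1.60 (0.755 to 3.38) was not distinguishable from 1 at this depth. Eif2ak2 had a ratio of 1.36 (1.08 to 1.70), Mavs of 0.995 (0.803 to 1.22) and Adar of 0.910 (0.548 to 1.496). Ratios of at least 1.5 were again seen for 3 of 6 members, against 3.05% of all genes tested. A second random thinning kept Ddx58 past 1.5 at 2.04 (1.33 to 3.11), but gave 1.34 (0.840 to 2.12) for Ifih1, 1.03 (0.391 to 2.70) for Dhx58 and 1.15 (0.888 to 1.46) for Eif2ak2. It gave 1.30 (1.08 to 1.55) for Mavs, about the ratio of Ifih1. With a UMI of any of Ifit1, Ifit3, Rsad2, Mx1, Irf7 and Usp18 in place of Isg15, the 3 receptors were past 1.5. The ratios were 2.73 (1.69 to 4.35) for Ddx58, 2.53 (1.63 to 3.87) for Ifih1 and 2.66 (1.252 to 5.55) for Dhx58. By that rule Eif2ak2 was at 0.813 (0.557 to 1.17), Mavs at 1.06 (0.817 to 1.35) and Adar at 1.30 (0.756 to 2.19). Without thinning, the ratios were 1.44 (1.16 to 1.77) for Ddx58, 1.30 (1.08 to 1.56) for Ifih1 and 1.67 (1.21 to 2.28) for Dhx58, and 1.16 (1.08 to 1.24) for Mavs. In the Usp18+/Δ-labelled library, by contrast, the 3 receptors stayed above 1.5 in both, from 2.35 to 2.90 in the second thinning and from 1.88 to 2.36 without thinning, with Mavs at 1.01 and 1.06.

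**Figure D2:**
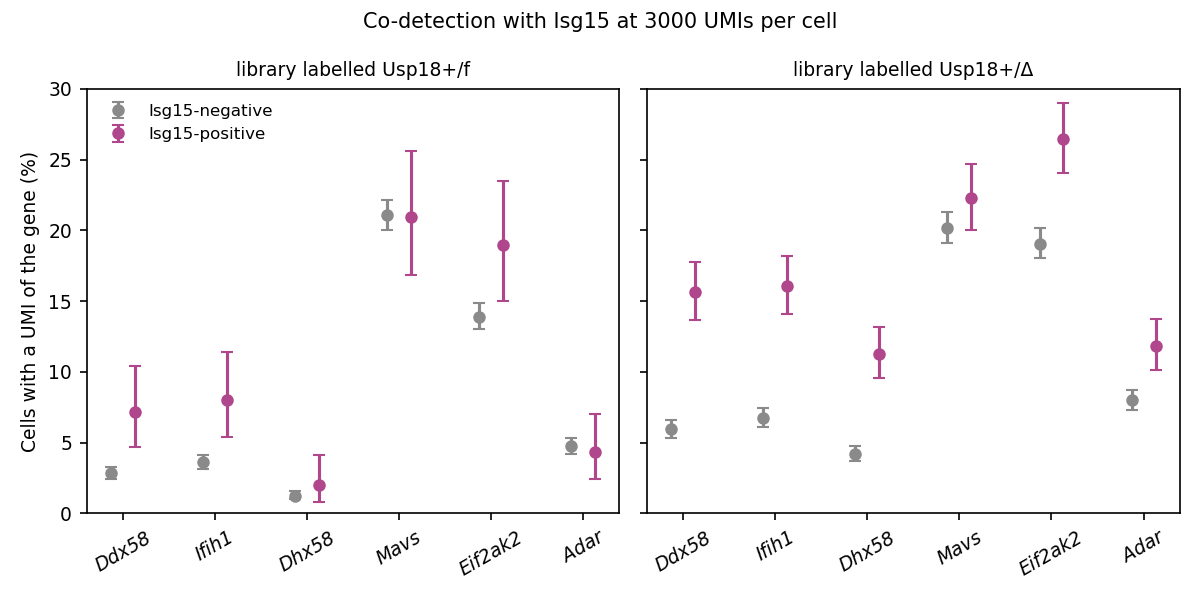
Share of cells (%) with a UMI of each member among Isg15-negative (grey) and Isg15-positive (magenta) cells, all thinned to 3000 UMIs, for the Usp18+/f-labelled library (left) and Usp18+/Δ (right). Bars are exact Clopper-Pearson 95% intervals. On the right the magenta points of Ddx58, Ifih1 and Dhx58 (15.6%, 16.0% and 11.3%) lie well above the grey ones, and the Mavs intervals overlap on both sides.

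Levels of most members also followed the amount of Isg15 in the Usp18+/Δ-labelled library. At 0, 1, 2 to 3, and 4 or more Isg15 UMIs, cells of the Usp18+/Δ-labelled library had 21.1, 37.6, 87.9 and 158.5 CPM of Ddx58. Ifih1 went from 23.4 through 39.9 and 80.6 to 184.1 CPM, and Dhx58 from 14.2 through 31.6 and 50.1 to 83.9 CPM. Eif2ak2 went from 72.5 to 174.8 CPM between the lowest and the highest class and Adar from 27.8 to 46.6 CPM. Mavs was at 76.9, 89.4, 83.0 and 79.3 CPM, without an order. The highest class held 143 of these cells, and only 8 cells of the Usp18+/f-labelled library, too few to set the libraries side by side there. At 0 and 1 Isg15 UMI (5742 and 316 cells) of that library, Ddx58 was at 9.81 and 26.4 CPM and Ifih1 at 12.3 and 25.3 CPM. Eif2ak2 was at 50.4 and 60.1 CPM, Adar at 16.4 and 17.9 CPM and Mavs at 80.6 and 78.1 CPM. Dhx58 was at 4.18 and 3.16 CPM, the latter from 3 UMIs.

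The difference between libraries was present in cells without a detected Isg15 UMI. Among Isg15-negative cells at 3000 UMIs, all UMIs of those cells counted, the log2 ratio was 1.73 (1.504 to 1.97) for Dhx58, 1.04 (0.876 to 1.20) for Ddx58 and 0.85 (0.708 to 0.988) for Ifih1. It was 0.69 (0.567 to 0.815) for Adar, 0.58 (0.507 to 0.652) for Eif2ak2 and -0.054 (-0.118 to 0.0097) for Mavs. Eif2ak2 thereby fell just short of 1.5-fold (0.585 on the log2 scale). Negative cells were not free of Isg15: with all their UMIs counted it stood at 10.9 CPM in the Usp18+/f-labelled library and 29.2 CPM in the other. Among Isg15-positive cells the log2 ratios were 2.52 (1.87 to 3.25) for Dhx58, 1.28 (0.941 to 1.64) for Ifih1, 1.23 (0.883 to 1.59) for Ddx58, 1.22 (0.809 to 1.66) for Adar, 0.66 (0.444 to 0.881) for Eif2ak2 and 0.048 (-0.159 to 0.259) for Mavs. Isg15 itself stood at 202.0 and 522.1 CPM in them. At exactly 1 Isg15 UMI (316 and 843 cells, thinned UMIs), Ddx58 was at 0.51 (-0.138 to 1.21), within counting error. Ifih1 was at 0.66 (0.0042 to 1.36) and Dhx58, with 3 and 80 UMIs, at 3.32 (1.72 to 5.63). Adar was at 1.13 (0.375 to 1.96), Eif2ak2 at 0.64 (0.218 to 1.08) and Mavs at 0.20 (-0.190 to 0.594).

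**Figure D3:**
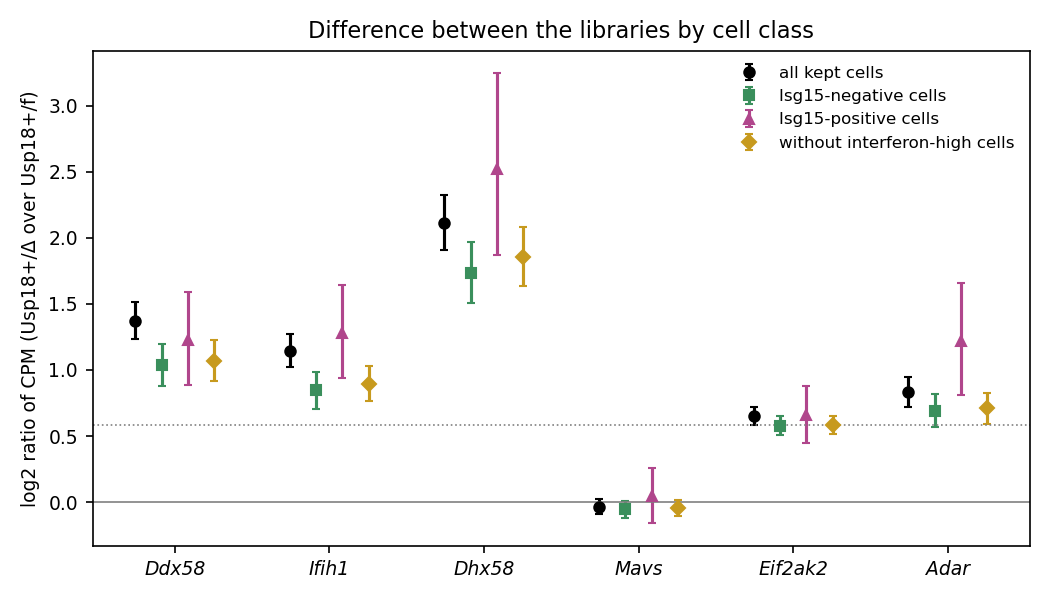
Log2 ratio of CPM, library labelled Usp18+/Δ over Usp18+/f, for 6 members in all kept cells (black), Isg15-negative cells (green), Isg15-positive cells (magenta) and cells that were not interferon-high (yellow). Bars are exact conditional 95% intervals, the solid line is no difference and the dotted line 1.5-fold. Dhx58 has the highest ratio in each class, from 1.73 to 2.52, and Mavs lies close to 0 in each.

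To describe the members along a wider interferon response, UMIs of 32 interferon-stimulated genes, without Isg15 and the members, were counted per cell at 3000 UMIs; 31 of them were in the files, and Usp18 was among them. Cells with more than 9 such UMIs, the 99th percentile of the Usp18+/f-labelled library, were called interferon-high. By that rule they made up 0.772% of the Usp18+/f-labelled library (47 cells), and they made up 10.9% (10.1 to 11.6) of the Usp18+/Δ-labelled library (730 cells). Interferon-high cells of the latter had a UMI of 1.29 members on average.

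Among interferon-high cells none of the 3 receptors was higher in the Usp18+/Δ-labelled library by more than counting error. Ddx58 was at 132.1 CPM in the 47 cells of the Usp18+/f-labelled library and at 91.8 CPM in the 730 of the other, a log2 ratio of -0.53 (-0.993 to -0.021). Ifih1 stood at 79.2 and 88.4 CPM (0.16, -0.434 to 0.816), and Eif2ak2 at 178.3 and 136.2 CPM (-0.39, -0.790 to 0.039). The direction for Ddx58 was thus the opposite of that over all cells, with 40 and 467 UMIs behind it. Dhx58 stood at 29.7 and 51.9 CPM (0.80, -0.143 to 1.95) and Adar at 23.1 and 53.1 CPM (1.20, 0.136 to 2.53). Outside this class the log2 ratios were 1.86 for Dhx58, 1.07 for Ddx58, 0.90 for Ifih1, 0.71 for Adar, 0.58 for Eif2ak2 and -0.047 for Mavs. The difference of the receptors between libraries thus remained in the cells below the limit.

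Cells were then placed in 5 classes by their UMIs of the interferon list, limits that were chosen after the values were seen. From 0 to over 10 list UMIs, Ddx58 in the Usp18+/Δ-labelled library went from 11.1 (5.06 to 21.01) to 102.5 CPM (87.8 to 118.9), Ifih1 from 9.84 to 100.1 CPM and Dhx58 from 2.46 to 57.7 CPM. The 784 and 271 cells without a list UMI had 5.95 and 11.1 CPM of Ddx58 (log2 ratio 0.90, -0.494 to 2.21), 10.6 and 9.84 CPM of Ifih1, 2.55 and 2.46 CPM of Dhx58 and 15.3 and 11.1 CPM of Adar, differences within counting error. At 1 to 2 list UMIs the log2 ratios were 1.20 (0.452 to 1.96) for Dhx58, 0.87 (0.398 to 1.35) for Ddx58, 0.70 (0.336 to 1.06) for Adar, 0.44 (0.0183 to 0.863) for Ifih1, 0.37 (0.152 to 0.580) for Eif2ak2 and -0.18 (-0.368 to 0.0068) for Mavs. At 3 to 5 list UMIs, the class with the most cells of the Usp18+/Δ-labelled library, Dhx58 was at 6.24 and 14.2 CPM (log2 ratio 1.19, 0.643 to 1.77), Ifih1 at 13.2 and 23.6 CPM (0.84, 0.452 to 1.24), Ddx58 at 12.7 and 19.0 CPM (0.59, 0.180 to 1.01) and Adar at 17.0 and 29.2 CPM (0.78, 0.436 to 1.13). At 6 to 10 list UMIs Dhx58 was at 6.21 and 30.3 CPM (2.28, 1.13 to 3.76), while Ddx58 was at 25.9 and 36.6 CPM (0.50, -0.112 to 1.17) and Adar at 28.0 and 32.4 CPM (0.21, -0.384 to 0.864), both within counting error. Ifih1, at 23.8 and 39.0 CPM (0.71, 0.080 to 1.41), and Eif2ak2, at 62.1 and 89.0 CPM (0.52, 0.126 to 0.936), were higher beyond counting error in that class. Over 10 list UMIs, with 35 and 566 cells, the log2 ratios were -0.38 (-1.17 to 0.521) for Ddx58, 0.59 (-0.488 to 1.92) for Ifih1, 1.60 (-0.292 to 4.67) for Dhx58, -0.51 (-1.15 to 0.212) for Eif2ak2 and 0.15 (-0.863 to 1.39) for Mavs, and Adar had 0 and 97 UMIs. The first 5 were within counting error. A class limit on few UMIs sorts cells only roughly, and how far cells of both libraries differ in their interferon response within a class was not tested.

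**Figure D4:**
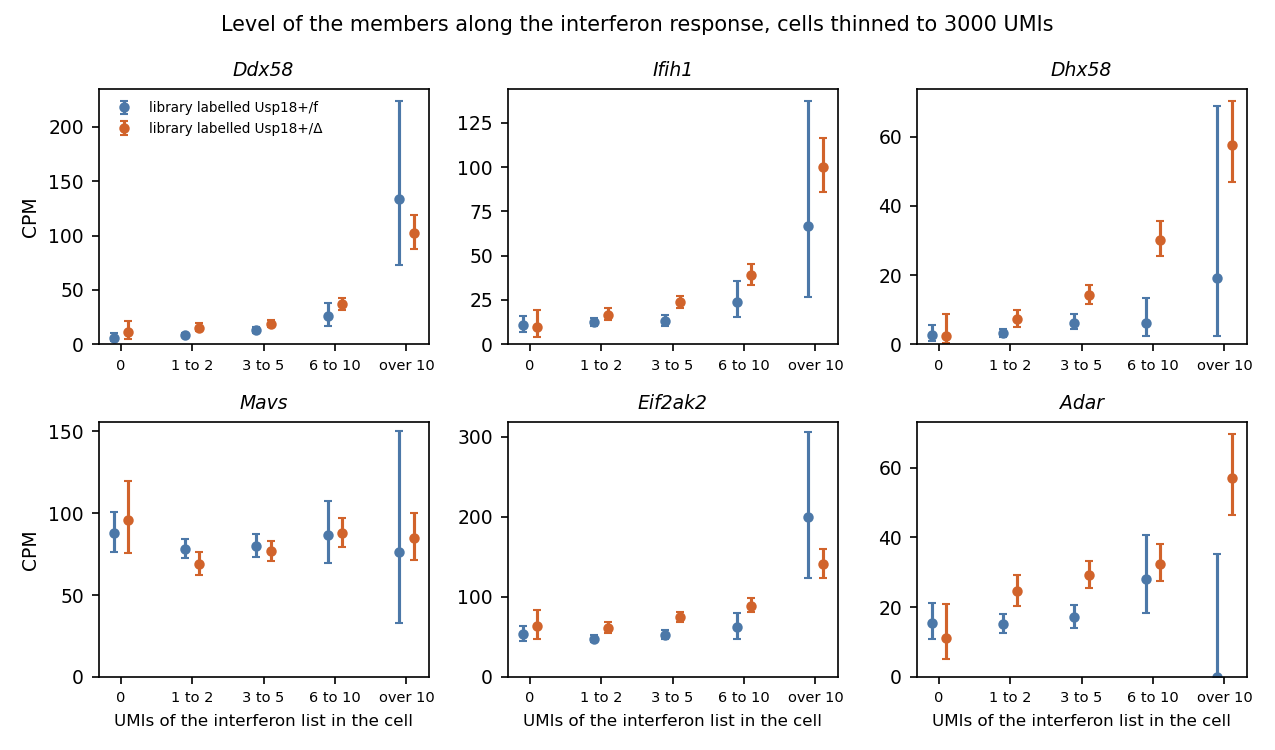
CPM of 6 members in cells thinned to 3000 UMIs, by the number of UMIs of the interferon list in the cell, for the Usp18+/f- (blue) and Usp18+/Δ-labelled (orange) libraries. Bars are exact Poisson 95% intervals. The 3 receptors are highest in the last class, at 102.5, 100.1 and 57.7 CPM in orange, and Mavs stays between 69.0 and 95.9 CPM; the last blue class holds 35 cells and has wide intervals.

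Cell cycle phase calls differed between the libraries, with 24.8% (23.7 to 25.8) of cells in G1 in the Usp18+/f-labelled library and 33.3% (32.2 to 34.4) in the Usp18+/Δ-labelled library. Cells called G1 were shallower, with medians of 6339 and 5632 UMIs against 10043 and 9945 UMIs in G2M. Ddx58 was the member whose level differed most between phases. In the Usp18+/f-labelled library it was at 19.9, 10.3 and 6.96 CPM in G1, S and G2M, and at 48.8, 20.1 and 18.9 CPM in the other library. Dhx58 was at 5.36, 4.02 and 3.54 CPM and at 28.4, 14.9 and 13.5 CPM. Isg15 itself was also highest in G1, at 34.0 and 224.7 CPM.

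Within every phase the receptors were higher in the Usp18+/Δ-labelled library. The log2 ratios in G1, S and G2M were 1.29, 0.97 and 1.44 for Ddx58, 1.31, 1.01 and 1.07 for Ifih1, and 2.40, 1.88 and 1.93 for Dhx58. Eif2ak2 was at 0.64, 0.60 and 0.67. Adar was at 0.88, 0.54 and 0.90, so that it fell short of 1.5-fold in S. Mavs was at -0.039, -0.043 and -0.066, and was itself higher in G1 (96.5 and 93.9 CPM) than in G2M (74.6 and 71.3 CPM) of both libraries.

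**Figure D5:**
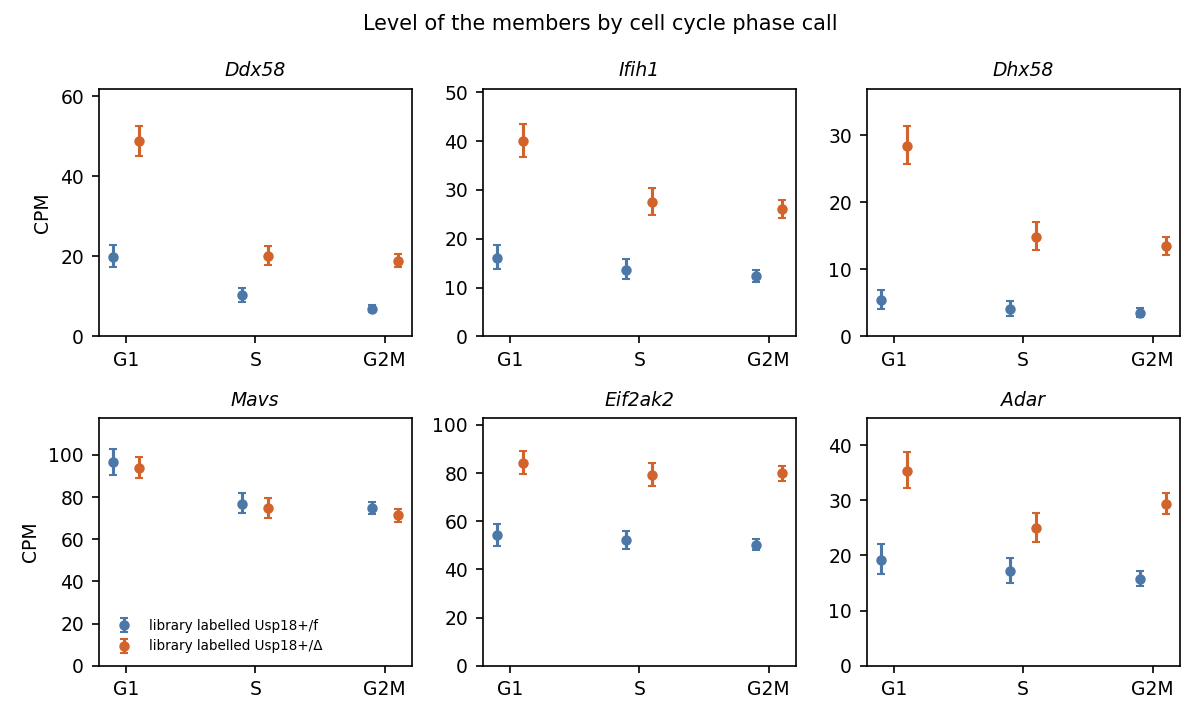
CPM of 6 members in cells called G1, S and G2M for the Usp18+/f- (blue) and Usp18+/Δ-labelled (orange) libraries, with exact Poisson 95% intervals. Ddx58 falls from G1 to G2M in both libraries, from 19.9 to 6.96 CPM and from 48.8 to 18.9 CPM, and Eif2ak2 stays between 50.2 and 84.3 CPM.

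Other genes of the pathway were described from lists by role. Of 81 distinct genes in the files, 60 reached 5 CPM, 7 were at least 1.5-fold higher in the Usp18+/Δ-labelled library (1.17% of all tested genes) and 0 at least 1.5-fold lower (0.18%). Of the 7, Irf7, Oas2 and Ifit1 were below 5 CPM in the Usp18+/f-labelled library (4.86, 4.84 and 1.26 CPM) and passed the level filter through the other. The median log2 ratio of the 60 tested genes was 0.058. Downstream of MAVS, 1 of 11 tested genes passed 1.5-fold. That was Irf7, the interferon-induced transcription factor, with 282 and 1819 UMIs and a log2 ratio of 2.65 (2.47 to 2.84). The kinase Tbk1 (0.0057) and the transcription factor Irf3 (0.053), both constitutive, showed next to no difference, and Traf3 had the lowest ratio (-0.061). The kinase Ikbke was below the level filter, with 217 and 341 UMIs.

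Regulators of the RIG-I-like receptors numbered 10 above the filter, and 0 passed 1.5-fold, against 1.17% of all tested genes. At that share a count of 0, here and in the short lists below, does not set a list apart from all genes. The highest were Trim14 (0.55, 0.327 to 0.778) and Trim25 (0.46, 0.380 to 0.538), the ubiquitin ligase that acts on RIG-I, and the lowest was Ube2d3 (-0.036). Trim14 was at 4.70 CPM in the Usp18+/f-labelled library and passed the level filter through the other. Below the filter, Ddx60 had 13 and 145 UMIs and Nlrc5 17 and 85 UMIs, both with more in the Usp18+/Δ-labelled library, while Rnf135 had 220 and 249 UMIs and Nlrx1 216 and 266 UMIs. None of 7 other RNA helicases linked to sensing passed, with log2 ratios from -0.056 (Dhx36) to 0.14 (Dhx9).

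Genes that act with PKR or in the integrated stress response had a median log2 ratio of -6.2e-04 over 9 tested genes, and 0 passed 1.5-fold. Chac1 was below the filter, with 99 and 123 UMIs. Trib3 was highest (0.49) and Ppp1r15a, a phosphatase subunit that reverses eIF2α phosphorylation, lowest (-0.12, -0.247 to -0.0015). Among the partners of ZBP1 in necroptosis, 0 of 6 passed. Mlkl, the executioner of necroptosis, had 609 and 847 UMIs and a log2 ratio of 0.44 (0.289 to 0.593), and Ripk3 -0.088 (-0.151 to -0.025). Unlike Zbp1, all 6 partners were detected well above the filter in both libraries. Of the other RNA editing enzymes only the deaminases Adat1 (-0.079) and Adat2 (0.16) could be compared, and below the filter Adarb1 had 2 and 3 UMIs, Adarb2 44 and 55, and Adat3 and Adad1 none.

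RNA binding effectors differed most among these lists, with 5 of 7 tested genes at least 1.5-fold higher, against 1.17% of all tested genes, and a median log2 ratio of 1.45. Ifit1 and Oas2 are among the 5 and reached the level filter only through the library in which they are high. Ifit1 had 73 and 878 UMIs (3.55, 3.21 to 3.92), and the 2′-5′ oligoadenylate synthetases Oas2, Oas3 and Oas1a had log2 ratios of 2.19, 1.80 and 0.92. Isg20, an RNA exonuclease, had 1.45. Ifit2 was lowest (0.21, 0.065 to 0.365). Below the filter, Ifit3 had 5 and 27 UMIs and Ifit3b 0 and 2 UMIs. Ifit1, Oas1a, Oas2, Oas3 and Irf7 are also in the interferon list above. In cytosolic DNA sensing 1 of 5 genes passed, the nucleotide phosphohydrolase Samhd1 (0.62, 0.552 to 0.687). Ifi204 was lowest (-0.14), and Trex1 had 0 UMIs in both libraries. The endosomal nucleic acid receptors Tlr3, Tlr7 and Tlr8, which bind RNA, and Tlr9, which binds DNA, had 0 to 2 UMIs in either library, and 0 of 3 tested genes of that list passed, with Unc93b1 highest (0.43) and Ticam1 lowest (-1.0e-04). Ifnb1, Ifna1, Ifna2 and Ifna4 had 0 UMIs in both libraries, which allows up to 0.0517 and 0.0504 CPM each.

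Over 12 strata (library, phase and Isg15 status), the genes with the most similar profile of log2(CPM + 1) among 5983 genes above a mean level of 20 CPM were looked up for each member. For Ddx58 these were Gbp7 (Pearson r = 0.977), Dtx3l (0.975) and Sp100 (0.972). For Ifih1 they were Isg20 (0.980), Rnf213 (0.964) and Gbp7 (0.964), and for Dhx58 Adar (0.971), Bst2 (0.967) and Mitd1 (0.958). Eif2ak2 was nearest to Rnf213 (0.971), Ifih1 (0.954) and Bst2 (0.952). Mavs stood with a different set, Cd200r3 (0.983), Fyb (0.975) and Flot1 (0.975), and Adar with Tor1aip1 (0.972), Tor1aip2 (0.951) and Mitd1 (0.931). Zbp1 had too few UMIs for a profile. The strata share 2 libraries, so that any gene that differs between them gives a high r, and the correlations are a description only.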

How the data were processed

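The authors prepared 2 libraries with the 10x Genomics 3′ V3 kit and Cell Ranger 3.0.2 on mm10. The deposited values are raw UMI counts per gene and cell barcode, 63690481 over 7281 barcodes (labelled Usp18+/f) and 65146263 over 7833 (labelled Usp18+/Δ). Barcodes under 500 genes or over 10% mitochondrial UMIs were dropped, leaving 6886 and 7406. Scrublet in scanpy 1.11.5, run on these, marked 0.0412% and 0.0255% of all deposited barcodes as doublets, too few for a working call. Cells above the 95th percentile of its scores were therefore removed (340 and 333). Counts were summed per library and scaled to CPM. With 1 library per group no test was run. Intervals at 95% are exact Poisson (CPM), exact conditional (ratios), Clopper-Pearson (shares) and score (ratios of shares, from statsmodels). All but the score intervals were tested on data simulated from the Poisson and binomial models that they assume. The score intervals were not tested. UMIs count captured molecules near the 3′ end, so levels are compared for a gene and not between genes. Phases came from scanpy's cell cycle score with 35 S and 51 G2M genes. Promoter letters are from RefSeq (GRCm38.p6), and positions from GENCODE vM21 (30934 of 31053 identifiers matched).

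The members, lists and tests were chosen with earlier results of these data known. Named genes were the members, Isg15 and Usp18, the highest and lowest of each list with any below the level filter, and 3 similar genes per member; Kit, Tbk1, Irf3, Trim25 and further genes of the lists were named after their values were seen. Alternatives varied the cell filter, doublet removal, scaling, level filter, fold, thinning, Isg15 limit and cell class. Some items are not reported here.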

Additional observations from a re-analysis of the deposited data

How the results depend on the processing

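No value past 1.5-fold over all cells changed sign under the alternatives run. Other values did cross no difference. The median co-detection ratio of the Usp18+/f-labelled library, 1.48, fell below 1, to 0.954, at no more than 5% mitochondrial UMIs. The log2 ratio of Mavs was 0.048 within Isg15-positive cells. Ddx58 had the opposite sign within the interferon-high cells (-0.53), a class described in the report and not among these alternatives. The median log2 ratio of all genes lay between -0.028 and 0.020 under the cell filters and scalings. The median log2 ratio of the members, 1.15, lay between 0.82 and 1.17 over 9 alternatives, with 0.82 after interferon-high cells were left out. Zbp1 enters it at the bound that a floor of 3 UMIs gives, which was itself the 0.82 (5 against 0 UMIs, with an exact lower bound of -0.038), and it had no bound, with 1 UMI, at no more than 5% mitochondrial UMIs (1.17, the median of 6 members). Over the 6 other members the median was 0.99 in the main analysis and lay between 0.81 and 1.17. The count of 5 members past 1.5-fold became 3 at a minimum of 20 CPM, where fewer members are tested, and 3 at 2-fold. It was 4, without Eif2ak2, at no more than 5% mitochondrial UMIs, with per-cell CPM means and without interferon-high cells, and 5 under the other 8 alternatives. The 7 pathway genes past 1.5-fold became 12 at no more than 5% mitochondrial UMIs and 3 at a minimum of 20 CPM, the latter with fewer genes tested. The cause of the former was not tested; this filter kept 1013 and 732 cells.

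The median log2 ratio of the shares of cells, 1.01, became 1.30 at no more than 5% mitochondrial UMIs and 0.78 without thinning. The median co-detection ratio in the Usp18+/f-labelled library, 1.48, became 3.29 when Isg15-positive meant at least 2 UMIs (32 cells), and ranged from 0.954 to 3.29. That of the Usp18+/Δ-labelled library, 1.93, became 1.63 at no more than 5% mitochondrial UMIs and 2.50 at 2 or more Isg15 UMIs. The causes of these moves were not tested. Per member, log2 ratios ranged from 0.97 to 1.93 for Ddx58, 0.85 to 1.31 for Ifih1, 1.73 to 2.77 for Dhx58, 0.47 to 0.67 for Eif2ak2, 0.54 to 1.22 for Adar and -0.11 to 0.048 for Mavs over 14 alternatives. Leaving out the cells with a neutrophil marker UMI, an alternative chosen after seeing the data, gave 1.37 for Ddx58, and leaving out cells with a C1q UMI gave a member median of 1.15.

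No paired analysis was possible because only 1 library stands for each group. Depth limits Zbp1, Dhx58 in the Usp18+/f-labelled library and all values of its 47 interferon-high cells. The shares from free RNA and the spread between mice were not measured.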
